A study of Homo sapiens with 14 samples.

Results

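The genes described here are targets that the transcription factor p53 switches on, chosen by name as MDM2, GDF15, SESN1, TP53INP1, ZMAT3, FDXR, TP53I3, RRM2B and XPC. These are 9 of the 27845 genes that the count tables pair with a symbol. The cells were CWR22Rv1, a human prostate cancer cell line that expresses the androgen receptor, and every sample came from this line. Their mRNA was sequenced after 72 h with the vehicle DMSO (3 libraries), with Fucotrim I at 30 μM (3 libraries), Fucotrim II at 60 μM (2 libraries), SGN-2FF at 100 μM (3 libraries) or P-SiaFNEtoc at 2 μM (3 libraries). Fucotrim I and Fucotrim II are rhamnose-1-phosphate derivatives aimed at GMDS, an enzyme of GDP-fucose synthesis, SGN-2FF is 2-fluorofucose, another fucosylation inhibitor, and P-SiaFNEtoc is an inhibitor of sialyltransferases. The doses differ between the compounds, so their effects are given side by side and were not compared with each other.

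p53 is held at a low level in unstressed cells because MDM2, the product of one of its own target genes, marks it for degradation. When DNA damage or other stress frees p53 from MDM2, it binds DNA sites made of a pair of similar half-sites and raises the mRNA of genes for cell cycle arrest, DNA repair, metabolism and cell death. MDM2 mRNA rises with the other targets in that response and closes a feedback loop. The 9 genes cover this loop (MDM2), a secreted stress cytokine (GDF15), a p53 cofactor (TP53INP1), redox and growth control (SESN1, FDXR, TP53I3), an RNA-binding protein (ZMAT3) and the supply of nucleotides and repair of DNA (RRM2B, XPC). mRNA counts do not show whether the p53 protein of these cells was active.

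The libraries held 12553094 to 19981453 counts on genes. Of 7 markers of luminal prostate epithelium all were present in every library, at 28.5 CPM or more (CPM are counts scaled to the same total in each library), and their summed level was 2140 to 2220 CPM in DMSO and 2460 to 2950 CPM in the treated libraries. The 3 basal markers summed to at most 0.457 CPM, the 3 leukocyte markers to at most 0.649 CPM and the 3 endothelial markers to at most 0.239 CPM, while of the 4 fibroblast markers COL1A1 (16.1 to 26.7 CPM) and LUM (2.04 to 3.65 CPM) were present in every library and DCN and COL1A2 were under 1 CPM. The fibroblast markers summed to 19.7 to 21.8 CPM in DMSO and to 24.2 and 29.9 CPM with Fucotrim II. Mitochondrially encoded genes took 5.99% to 7.04% of the counts in DMSO, 8.68% to 14.2% with Fucotrim I, 17.0% and 12.2% with Fucotrim II (replicates 1 and 2), 8.28% to 8.69% with SGN-2FF and 6.12% to 6.84% with P-SiaFNEtoc. The part of this share and of the luminal and fibroblast markers in the results below was not tested, and leaving the mitochondrial genes out before scaling, or scaling by DESeq2's size factors, moved no log2 fold change of the 9 genes by more than 0.00814. The replicates are biological repeats according to their titles. The Fucotrim II pair had the highest chi-square per degree of freedom of any pair of replicates (24.2, against 1.59 to 17.9). This value also grows with the counts in a library, which were 18183854 and 19099194 with Fucotrim II and 12553094 to 14947100 with Fucotrim I. Pairs of unlike depth, such as those of Fucotrim I and Fucotrim II, cannot be ranked by it. Groups nearer in depth to Fucotrim II had lower values. With P-SiaFNEtoc, at 15424545 to 19981453 counts, the pairs had 2.00 to 3.56. In DMSO, at 15398797 to 17689717 counts, they had 1.80 to 4.37. The Fucotrim II results rest on these 2 libraries.

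In DMSO the 9 genes spanned a wide range of levels per length. GDF15 was the highest, at 76.2 ± 4.21 CPM per kilobase of exon (SD, n = 3), followed by MDM2 at 24.8 ± 0.915, XPC at 15.8 ± 0.550 and RRM2B at 10.4 ± 0.467. TP53INP1, at 7.79 ± 0.527, and FDXR, at 6.74 ± 1.10, overlapped in their 3 libraries and could not be ordered. ZMAT3 was at 2.12 ± 0.0428, SESN1 at 1.95 ± 0.0759 and TP53I3, the lowest, at 0.335 ± 0.0844 CPM per kilobase. TP53I3 had 9 to 24 counts in a library, so its values carry a large counting error. The length was the union of all annotated exons of a gene.

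**Figure D1:**
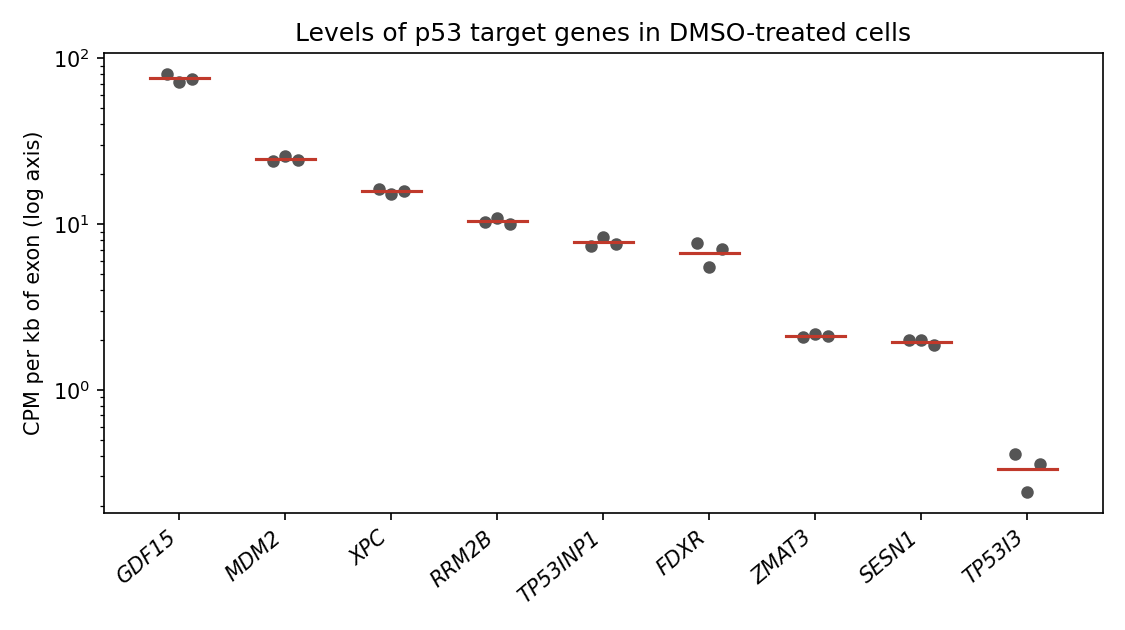
Levels of the 9 p53 target genes in the 3 DMSO libraries, in CPM per kilobase of exon on a log axis. Points are libraries and lines their means, which run from 76.2 for GDF15 to 0.335 for TP53I3.

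Each inhibitor was compared with DMSO by edgeR's quasi-likelihood test over all genes, and a gene is called changed where the Benjamini-Hochberg adjusted p was under 0.05. All 9 genes passed the filter on low counts in the 4 comparisons, which share their DMSO libraries. Of the 36 tests of these genes 9 were called, 6 higher and 3 lower. GDF15, FDXR and RRM2B were called with 2 inhibitors each, MDM2, TP53INP1 and ZMAT3 with 1 each, and SESN1, TP53I3 and XPC with 0. With Fucotrim I, 2 of the 9 were higher and 0 lower, where 43.8% of all 14188 genes tested were called. With Fucotrim II, 2 were higher and 2 lower, against 51.4% of 14617 genes. With SGN-2FF, 0 were higher and 1 lower, against 20.6% of 14312 genes. With P-SiaFNEtoc, 2 were higher and 0 lower, against 16.3% of 14259 genes. The shares of the 9 genes called were 22.2%, 44.4%, 11.1% and 22.2%. They were under the share of all genes with the fucosylation inhibitors and above it with P-SiaFNEtoc, where 2 of the 9 were called. Since 1 gene makes 11.1%, the gaps with Fucotrim II, SGN-2FF and P-SiaFNEtoc were each less than 1 gene. Shares of only 9 genes cannot show that these genes responded less or more often than others. With a log2 fold change beyond 0.58 required as well, 1 of the 9 genes was called with Fucotrim I (FDXR), 1 with Fucotrim II (GDF15), 0 with SGN-2FF and 0 with P-SiaFNEtoc, beside 9.03%, 20.8%, 2.66% and 1.68% of all genes. Treated and DMSO libraries had no overlap for 2, 4, 1 and 3 of the 9 genes, and for 52.6%, 67.7%, 36% and 33.7% of all genes. The 9 genes had a median log2 fold change of 0.06, 0.03, -0.05 and 0.02 (Fucotrim I, Fucotrim II, SGN-2FF and P-SiaFNEtoc), beside medians over all genes of 0.0012, 0.0075, 0.0036 and 0.00042.

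**Figure D2:**
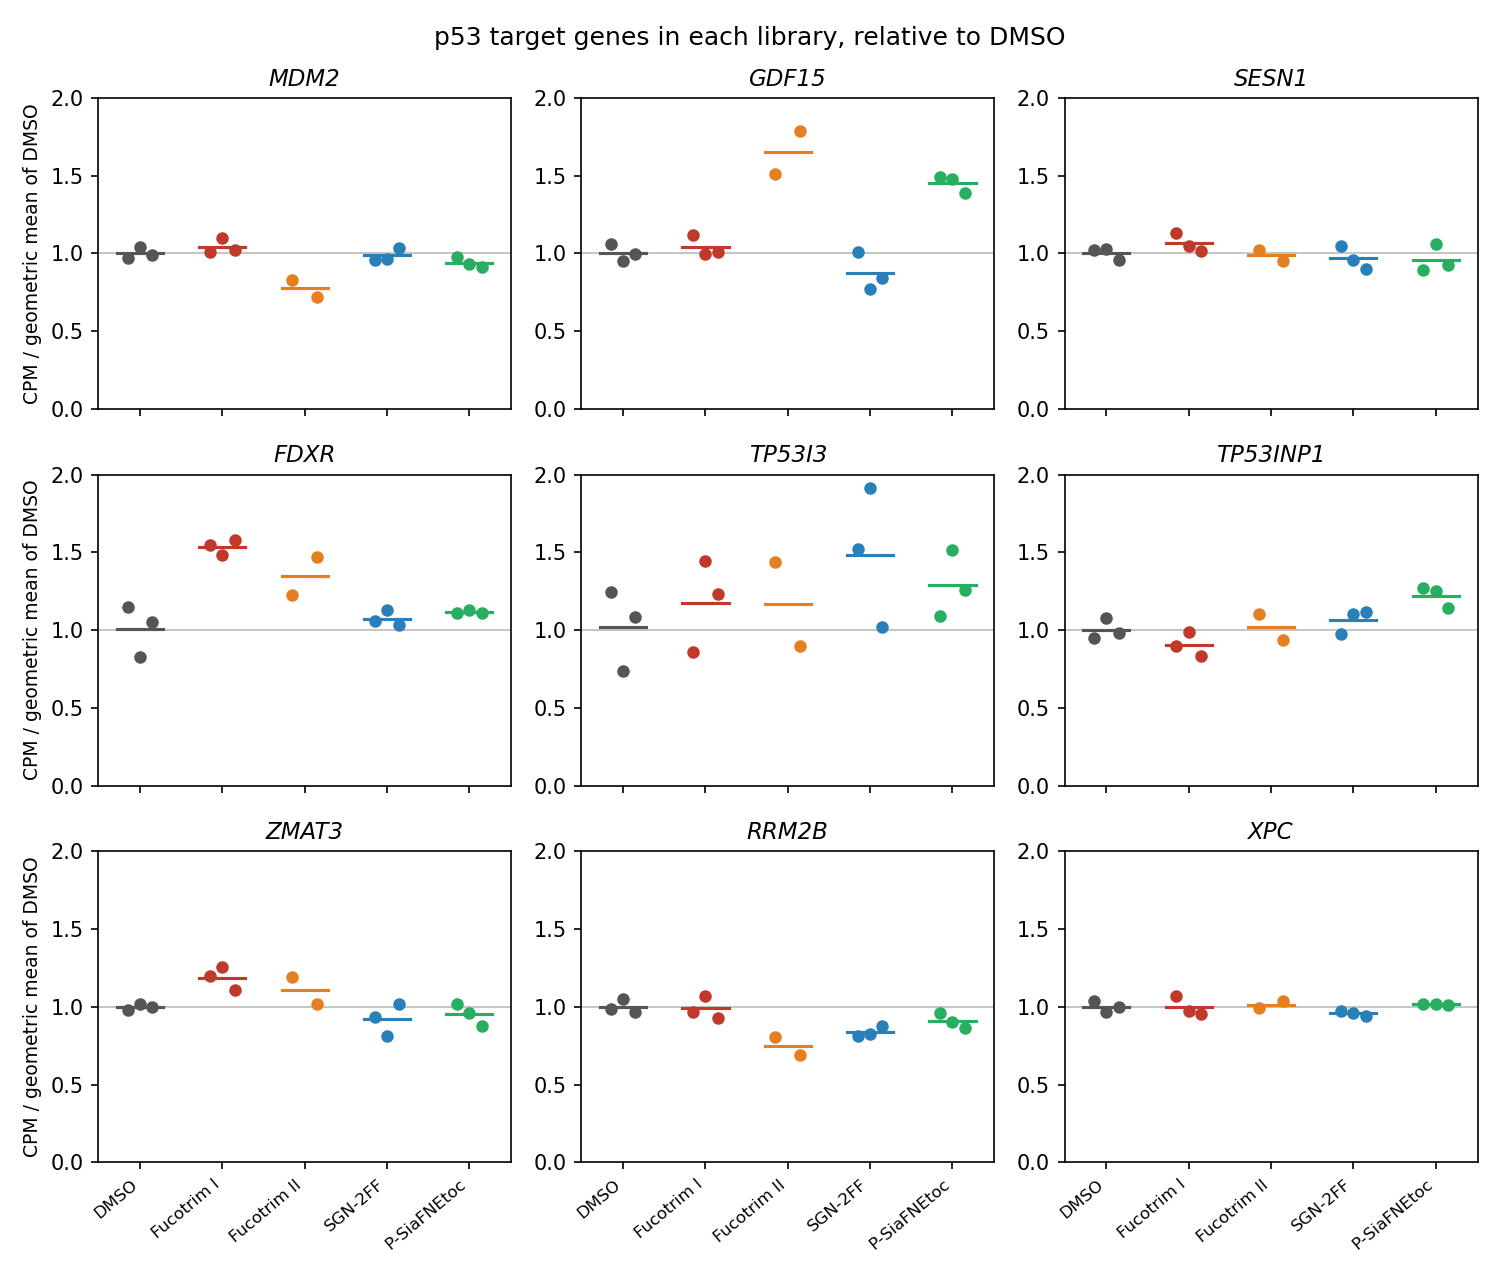
CPM of each of the 9 genes in every library, divided by the geometric mean of the DMSO libraries in the same fit (points are libraries, lines their means, the y axis starts at 0). GDF15 stands above DMSO with Fucotrim II and P-SiaFNEtoc. FDXR stands above it with Fucotrim I and, with 1 library close to the highest DMSO library, with Fucotrim II. MDM2 lies below DMSO with Fucotrim II, and RRM2B with Fucotrim II and SGN-2FF.

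MDM2 (NCBI gene 4193, hg38 chr12:68808177-68845544, plus strand) encodes the ubiquitin ligase that limits p53. p53 acts on it through a second promoter inside the gene. The window around this start, from 250 bases before to 50 bases after it in RefSeq on GRCh38.p14 (chr12:68808767-68809066, plus strand), is shown because MDM2 alone, of the 7 genes with RefSeq promoter windows, had a full p53 site in them. Capitals mark the site.
MDM2 second promoter: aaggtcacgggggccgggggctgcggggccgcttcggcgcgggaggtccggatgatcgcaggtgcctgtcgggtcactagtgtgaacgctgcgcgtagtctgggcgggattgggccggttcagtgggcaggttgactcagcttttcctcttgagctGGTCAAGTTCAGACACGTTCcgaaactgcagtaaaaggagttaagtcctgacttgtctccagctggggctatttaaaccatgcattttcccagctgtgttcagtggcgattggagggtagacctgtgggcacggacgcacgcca
The search was for the p53 full site, that is a pair of adjoining p53 half-site consensus decamers, with at most 2 mismatches in the 20 bases. Sites with more mismatches are left unmarked, so the absence of capitals does not show that a stretch holds no p53 site. The consensus is its own reverse complement, so both strands were covered. Such a site was in 0.649% of the 35116 RefSeq promoter windows of 300 bases, and an exact half-site in 6.63%. The 7 genes had 14 windows, and 2 genes, FDXR and SESN1, had an exact half-site in 1 window each.

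MDM2 fell with Fucotrim II. It was at 196, 210.3 and 199.7 CPM in the DMSO libraries and at 167 and 146 CPM in the Fucotrim II libraries. Both treated libraries were below all 3 DMSO libraries, with replicate 2 farther from DMSO than replicate 1, as was also so for GDF15, FDXR and RRM2B. In bulk libraries fewer cells that express a gene and less mRNA per cell cannot be told apart. For MDM2 the log2 fold change was -0.37 (standard error, SE, 0.07, edgeR adjusted p = 0.00273). With Fucotrim I MDM2 was at 207, 226 and 210.02 CPM beside 200.04, 215 and 203 CPM in DMSO, and the groups overlapped. The log2 fold change there was 0.06, with a 95% interval from -0.05 to 0.17. With SGN-2FF it was -0.02 (-0.11 to 0.07). With P-SiaFNEtoc it was -0.09 with an interval from -0.17 to -0.0045, and the edgeR adjusted p of 0.142 missed the threshold. On its exons, 11.1% of the bases overlap exons of genes on the opposite strand and 5.29% on the same strand, and the strand setting of the counting is not given in the sources used here.

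GDF15 (NCBI gene 9518, hg38 chr19:18374731-18389176, plus strand) encodes a secreted cytokine of the TGF-β superfamily that is raised by p53 and also by ATF4, the factor of the amino acid and endoplasmic reticulum stress response. Its RefSeq promoter window on GRCh38.p14 (chr19:18385908-18386207, plus strand) is shown because GDF15 rose with 2 inhibitors. No exact p53 half-site and no full site with at most 2 mismatches was found in these letters, so none is in capitals.
GDF15 promoter: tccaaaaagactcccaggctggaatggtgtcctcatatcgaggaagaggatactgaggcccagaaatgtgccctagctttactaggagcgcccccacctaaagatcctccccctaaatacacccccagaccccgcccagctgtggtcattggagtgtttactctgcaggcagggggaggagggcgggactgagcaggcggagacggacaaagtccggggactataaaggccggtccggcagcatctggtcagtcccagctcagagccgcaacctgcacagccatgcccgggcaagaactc
In the hg38 genome within 2 kb on each side of the first GENCODE start of the gene, 1 full site with 1 mismatch was found, at position -784 from that start and 12.2 kb before the RefSeq start. It is in capitals in this stretch of chr19:18373927-18373986, plus strand.
GDF15 upstream site: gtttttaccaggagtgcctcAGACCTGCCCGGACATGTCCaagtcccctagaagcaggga
The same search found a full site near 3 of the 7 genes searched, MDM2, GDF15 and TP53I3, and near 8.66% of the 7079 protein-coding starts on the same 6 chromosomes.

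GDF15 rose with Fucotrim II and with P-SiaFNEtoc. In the comparison with Fucotrim II it was at 165, 148 and 155 CPM in DMSO and at 236 and 279 CPM in the treated libraries. All treated libraries were above all DMSO libraries, with a log2 fold change of 0.72 (SE 0.08, edgeR adjusted p = 0.000117), which is 1.65-fold. In the comparison with P-SiaFNEtoc it was at 172, 154 and 161 CPM in DMSO and at 242, 240.1 and 225 CPM in the treated libraries. These groups did not overlap either, and the log2 fold change was 0.54 (SE 0.04, edgeR adjusted p = 2.84e-10), or 1.45-fold. The rise with P-SiaFNEtoc stayed between 0.50 and 0.58 whichever library was left out.

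With Fucotrim I GDF15 was at 177, 159 and 159.92 CPM beside 168, 151 and 158 CPM in DMSO, a log2 fold change of 0.06 (95% interval -0.06 to 0.17). With SGN-2FF it was at 162, 124 and 136 CPM beside 170.3, 153 and 159.97 CPM in DMSO. One of the SGN-2FF libraries lay within the DMSO range and the others below it. The log2 fold change was -0.20 (SE 0.10, edgeR adjusted p = 0.239). This test turned on the settings, since limma-voom (adjusted p = 0.0352), no filter on low counts (0.00185), the replicate number as a block (0.00248) and leaving out SGN-2FF replicate 1 (log2 fold change -0.31, adjusted p = 0.000432) put it past the threshold.

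Since GDF15 is also a target of ATF4, the ATF4 branch was read beside it in a list of 12 genes. With Fucotrim II 5 were lower and 1 higher, where 25.7% of all genes were lower and 25.6% higher. With P-SiaFNEtoc 5 were lower and 2 higher, where 7.33% of all genes were lower and 9.02% higher. ATF4 itself had log2 fold changes of -0.81, -0.21, -0.13 and -0.12 with Fucotrim I, Fucotrim II, SGN-2FF and P-SiaFNEtoc, all called. DDIT3, which encodes CHOP, had -1.09 and -0.31 with Fucotrim I and P-SiaFNEtoc, both called, and 0.13 and -0.07 with Fucotrim II and SGN-2FF, where edgeR's adjusted p was 0.156 and 0.358. CHAC1, a glutathione-degrading enzyme of this branch, fell with each of them, by 2.27, 1.46, 0.90 and 0.92 on the log2 scale. With Fucotrim I 10 of the 12 were lower and 0 higher (22.1% and 21.6% of all genes), and with SGN-2FF 8 were lower and 0 higher (9.08% and 11.5% of all genes). Their part in the level of GDF15 was not tested.

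FDXR (NCBI gene 2232, hg38 chr17:74862497-74873031, minus strand) encodes ferredoxin reductase, which passes electrons to mitochondrial cytochrome P450 enzymes and to iron-sulfur cluster assembly. Its first RefSeq promoter window on GRCh38.p14 (chr17:74872945-74873244, minus strand) is shown because FDXR was called higher with both Fucotrims. Capitals mark the exact p53 half-site.
FDXR promoter: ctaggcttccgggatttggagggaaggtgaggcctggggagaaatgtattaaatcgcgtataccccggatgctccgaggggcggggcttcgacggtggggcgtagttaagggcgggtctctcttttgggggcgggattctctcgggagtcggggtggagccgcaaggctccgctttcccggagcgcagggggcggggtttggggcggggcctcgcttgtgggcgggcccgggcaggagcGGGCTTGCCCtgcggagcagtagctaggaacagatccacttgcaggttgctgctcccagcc
With Fucotrim I, FDXR rose from 27.6, 19.9 and 25.3 CPM in DMSO to 37.2, 35.7 and 37.9 CPM. The groups were well apart, and the log2 fold change was 0.61 (SE 0.09, edgeR adjusted p = 3.65e-05), or 1.52-fold. It was past the threshold whichever library was left out, with log2 fold changes of 0.48 to 0.71.

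With Fucotrim II FDXR was at 28.9 and 34.6 CPM beside 27.1, 19.5 and 24.9 CPM in DMSO. The lower treated library was close to the highest DMSO library. The log2 fold change was 0.42 (SE 0.14, edgeR adjusted p = 0.0276), and the call was lost without DMSO replicate 2 (log2 fold change 0.28, adjusted p = 0.092), without DMSO replicate 3 (0.44, adjusted p = 0.0702) and without Fucotrim II replicate 2 (0.27, adjusted p = 0.201). FDXR was not called with SGN-2FF (0.09, 95% interval -0.11 to 0.30) or P-SiaFNEtoc (0.15, -0.03 to 0.32). Without DMSO replicate 1, in which FDXR was highest of the DMSO libraries, its difference with P-SiaFNEtoc was 0.25 and was called (edgeR adjusted p = 0.0419).

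The other redox and growth control genes, SESN1 and TP53I3, were not called with any of the 4 inhibitors. SESN1 (NCBI gene 27244) encodes a sestrin, which restrains growth signalling through mTORC1. It was at 13.5 to 14.5 CPM in DMSO and 14.4 to 16.1 CPM in the comparison with Fucotrim I, and its log2 fold changes lay between -0.07 and 0.09. The widest of its 95% intervals was that with Fucotrim II, from -0.24 to 0.21. TP53I3 (NCBI gene 9540, hg38 chr2:24077433-24085861, minus strand), also named PIG3, encodes a quinone oxidoreductase. Its largest log2 fold change, 0.56 with SGN-2FF, had an interval from -0.11 to 1.24, and that with Fucotrim II ran from -0.67 to 1.04. A 2-fold rise of TP53I3 lay inside both intervals. The full p53 site found at position -939 from its first GENCODE start (chr2:24086761-24086820, minus strand) is shown in capitals.
TP53I3 upstream site: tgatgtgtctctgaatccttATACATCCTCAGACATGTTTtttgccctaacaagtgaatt

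TP53INP1 (NCBI gene 94241, hg38 chr8:94925972-94949378, minus strand) encodes a nuclear cofactor that promotes the killing activity of p53 and takes part in autophagy. It rose with P-SiaFNEtoc, from 42.5, 48.5 and 43.9 CPM in DMSO to 57.2, 56.1 and 51.3 CPM. The groups did not overlap, and the log2 fold change was 0.29 (SE 0.06, edgeR adjusted p = 0.00089), or 1.22-fold. With Fucotrim I it was -0.14 (95% interval -0.29 to 0.01, edgeR adjusted p = 0.131), past the threshold without Fucotrim I replicate 2 (-0.21, adjusted p = 0.0321) and with the replicate number as a block (adjusted p = 0.0469). With Fucotrim II it was 0.03 and with SGN-2FF 0.09, neither called.

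ZMAT3 (NCBI gene 64393, hg38 chr3:178960121-179072215, minus strand) encodes a zinc finger protein that binds mRNA and regulates splicing. With Fucotrim I it was at 28.7, 29.98 and 26.5 CPM beside 23.4, 24.4 and 23.9 CPM in DMSO. All treated libraries were above DMSO, with a log2 fold change of 0.25 (SE 0.08, edgeR adjusted p = 0.0114), and the call was lost without DMSO replicate 1, at 0.24 and adjusted p = 0.0508. With Fucotrim II its libraries were at 27.97 and 23.9 CPM, 1 above and 1 within the DMSO range, and the log2 fold change was 0.14 (edgeR adjusted p = 0.22). Without Fucotrim II replicate 2 that value was 0.24 and past the threshold (adjusted p = 0.0358), on a single treated library taken to vary like the others. ZMAT3 was not called with SGN-2FF (-0.12) or P-SiaFNEtoc (-0.07).

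RRM2B (NCBI gene 50484, hg38 chr8:102204502-102238961, minus strand) encodes p53R2, a subunit of ribonucleotide reductase that supplies deoxynucleotides outside S phase and for mitochondrial DNA. It fell with Fucotrim II, from 54.2, 57.6 and 52.9 CPM in DMSO to 44.4 and 37.7 CPM. Both were below DMSO, and the log2 fold change was -0.42 (SE 0.09, edgeR adjusted p = 0.00303). It also fell with SGN-2FF, from 55.9, 59.4 and 54.6 CPM to 45.9, 46.7 and 49.8 CPM. The groups did not overlap, and the log2 fold change was -0.26 (SE 0.06, edgeR adjusted p = 0.0017). The fall with SGN-2FF was past the threshold whichever library was left out. The fall with Fucotrim II was so too, but without either treated library a single one remains, which is taken to vary like the DMSO libraries. With P-SiaFNEtoc it was at 54.9, 51.5 and 49.5 CPM beside 56.4, 60.1 and 55.1 CPM in DMSO, without overlap. That difference of -0.14 missed the threshold (edgeR adjusted p = 0.0868) and passed it without P-SiaFNEtoc replicate 1 (-0.18, adjusted p = 0.0472). With Fucotrim I it was -0.01 (95% interval -0.15 to 0.12).

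XPC (NCBI gene 7508, hg38 chr3:14145147-14178621, minus strand) encodes the protein that finds DNA lesions for nucleotide excision repair. It was not called with any of the 4 inhibitors. Its log2 fold changes were -0.0003 with Fucotrim I (95% interval -0.13 to 0.13), 0.02 with Fucotrim II (-0.13 to 0.17), -0.06 with SGN-2FF (-0.16 to 0.04) and 0.02 with P-SiaFNEtoc (-0.07 to 0.12). Its DMSO libraries were at 70.7 to 75.8 CPM in the comparison with Fucotrim I. The farthest bound of the 4 intervals was 0.17. Of its exon bases 24.6% overlap exons on the opposite strand, those of XPC-AS1 among them.

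**Figure D3:**
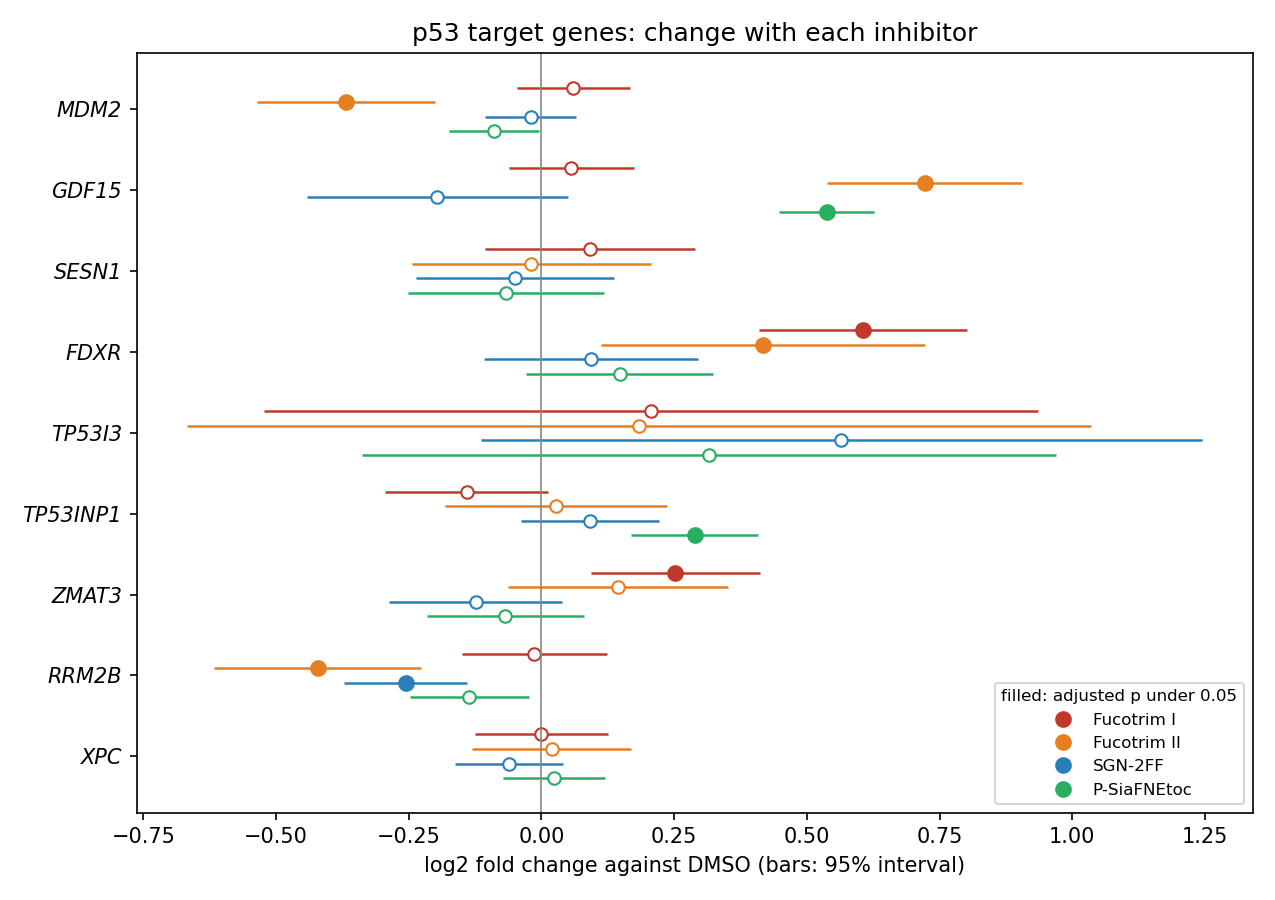
Log2 fold change of each of the 9 genes against DMSO with each inhibitor, with 95% intervals. Filled points are the 9 calls with adjusted p under 0.05, and the widest intervals are those of TP53I3, which had 9 to 24 counts in a library.

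Partners and relatives of p53 were read beside its targets. TP73, which encodes the related factor p73, rose by 0.52 on the log2 scale with Fucotrim II (edgeR adjusted p = 0.0304) from 4.13 ± 0.599 CPM in DMSO (SD, n = 3) and was not called with the others (0.25, 0.03 and 0.07 with Fucotrim I, SGN-2FF and P-SiaFNEtoc). USP7, a deubiquitinase that stabilizes MDM2 and p53, fell with Fucotrim I, Fucotrim II and SGN-2FF, by 0.22, 0.42 and 0.12 on the log2 scale, and had -0.10 with P-SiaFNEtoc (adjusted p = 0.102).

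Of the 9 partners and modifiers of p53 listed, 3 were lower and 0 higher with Fucotrim I, 6 lower and 0 higher with Fucotrim II, 2 lower and 1 higher with SGN-2FF and 0 either way with P-SiaFNEtoc. Of all genes 22.1%, 25.7%, 9.08% and 7.33% were lower with these inhibitors, in this order, and 21.6%, 25.6%, 11.5% and 9.02% higher. The lowest edgeR adjusted p of these 9 with P-SiaFNEtoc was 0.0558, of CHEK2. PPM1D, the phosphatase WIP1 and itself a p53 target, fell by 0.23 with Fucotrim I and 0.28 with Fucotrim II, and had -0.11 and -0.15 with SGN-2FF and P-SiaFNEtoc, not called. CHEK2, a kinase of the DNA damage checkpoint, fell by 0.17 and 0.28 with Fucotrim I and Fucotrim II and had -0.01 and -0.15 with SGN-2FF and P-SiaFNEtoc, not called. HIPK2 (-0.37) and the ubiquitin ligases RCHY1 (-0.53) and COP1 (-0.31) fell with Fucotrim II, and COP1 also with SGN-2FF (-0.17). MDM4, the relative of MDM2 that blocks p53 activity, rose with SGN-2FF (0.30, edgeR adjusted p = 0.0133) and was not called with the other inhibitors (0.16, 0.03 and -0.14 with Fucotrim I, Fucotrim II and P-SiaFNEtoc). ATM and CDKN2A were not called with any of the 4 inhibitors, with log2 fold changes from -0.17 to 0.05 and from -0.01 to 0.11.

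A further list held 63 other p53 targets, of which 60 could be tested and 3 (TNFRSF10C, TP53AIP1 and TRIM22) had at most 3 counts in a library. SESN2, DDIT4 and ATF3 of this list also belong to the list of the ATF4 branch. With Fucotrim I 21 of the 60 were higher and 11 lower, or 35% and 18.3%, where 21.6% and 22.1% of all genes were higher and lower. With Fucotrim II 21 were higher and 15 lower, or 35% and 25%, beside 25.6% and 25.7% of all genes. With SGN-2FF 8 were higher and 5 lower (13.3% and 8.33%, beside 11.5% and 9.08%), and with P-SiaFNEtoc 9 and 6 (15% and 10%, beside 9.02% and 7.33%). The median log2 fold change of the 60 genes was 0.10, -0.01, -0.01 and 0.03 with Fucotrim I, Fucotrim II, SGN-2FF and P-SiaFNEtoc.

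By role, 7 of the 12 cell death genes tested were higher with Fucotrim I and 1 lower, 5 were higher and 3 lower with Fucotrim II, 3 and 1 with SGN-2FF, and 2 and 2 with P-SiaFNEtoc. In the same order 21.6%, 25.6%, 11.5% and 9.02% of all genes were higher and 22.1%, 25.7%, 9.08% and 7.33% lower. BBC3, which encodes the BH3-only protein PUMA, rose from 36.5 ± 5.34 to 59.1 ± 4.01 CPM with Fucotrim I (SD, n = 3 each), or by 0.70 on the log2 scale, and by 1.07 with Fucotrim II (edgeR adjusted p = 5.61e-06 and 0.000111). Its values with SGN-2FF and P-SiaFNEtoc were 0.10 and 0.22, with adjusted p = 0.545 and 0.055. BAX, which permeabilizes the outer mitochondrial membrane, rose with each inhibitor, by 0.56, 0.50, 0.22 and 0.15 on the log2 scale. APAF1, the scaffold of the apoptosome, fell with each, by 0.49, 0.57, 0.21 and 0.20. FAS, a death receptor, fell with P-SiaFNEtoc (-0.32) and rose with Fucotrim I (0.35).

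Of the 9 arrest genes, 4 were higher and 1 lower with Fucotrim I, 3 and 2 with Fucotrim II, 2 and 0 with SGN-2FF, and 5 and 1 with P-SiaFNEtoc, beside the same shares of all genes (21.6%, 25.6%, 11.5% and 9.02% higher). CDKN1A, which encodes the CDK inhibitor p21, rose from 144 ± 4.85 to 202 ± 7.48 CPM with Fucotrim I (SD, n = 3 each), or by 0.49 on the log2 scale (edgeR adjusted p = 2.53e-07), and by 0.22 with P-SiaFNEtoc (adjusted p = 0.000571). With Fucotrim II and SGN-2FF it was at -0.16 and -0.08 and was not called. GADD45A, a stress sensor that slows the cell cycle, rose by 0.68, 0.77, 0.32 and 0.24 with Fucotrim I, Fucotrim II, SGN-2FF and P-SiaFNEtoc, each called. PLK2, a kinase, fell with Fucotrim II (-0.79) and rose with P-SiaFNEtoc (0.43), PLK3 rose with Fucotrim I (0.81), Fucotrim II (0.61) and P-SiaFNEtoc (0.31), and E2F7, a repressor that is also driven by the cell cycle, fell with Fucotrim I (-0.33), Fucotrim II (-0.81) and P-SiaFNEtoc (-0.35).

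The other roles are given as genes higher and lower with Fucotrim I, Fucotrim II, SGN-2FF and P-SiaFNEtoc, in this order. The 5 DNA repair genes had 2 and 1, 2 and 3, 1 and 0, and 0 and 2. The 11 metabolism and stress genes had 1 and 3, 3 and 1, 1 and 1, and 0 and 1. The 23 signalling and other genes tested had 7 and 5, 8 and 6, 1 and 3, and 2 and 0. Of all genes 21.6%, 25.6%, 11.5% and 9.02% were higher and 22.1%, 25.7%, 9.08% and 7.33% lower. Among the remaining targets, LIF (1.14), PHLDA3 (0.91) and EDA2R (0.89) rose most with Fucotrim I, where KITLG (-0.49) and ATF3 (-0.38) fell most after APAF1. PLTP, a phospholipid transfer protein, rose most with Fucotrim II (1.34) and also with Fucotrim I (0.52), SGN-2FF (0.38) and P-SiaFNEtoc (0.26), and KITLG fell most with Fucotrim II (-1.01). SESN2 (-0.29) and ATF3 (-0.25) fell most with SGN-2FF, and POLH, a polymerase that copies past DNA lesions, fell most with P-SiaFNEtoc (-0.36). FUCA1, a lysosomal fucosidase that removes fucose from glycans and is a p53 target, was higher with Fucotrim II (0.27, edgeR adjusted p = 0.0148) and was not called with Fucotrim I (0.18, adjusted p = 0.0595), SGN-2FF (-0.06) or P-SiaFNEtoc (-0.03).

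**Figure D4:**
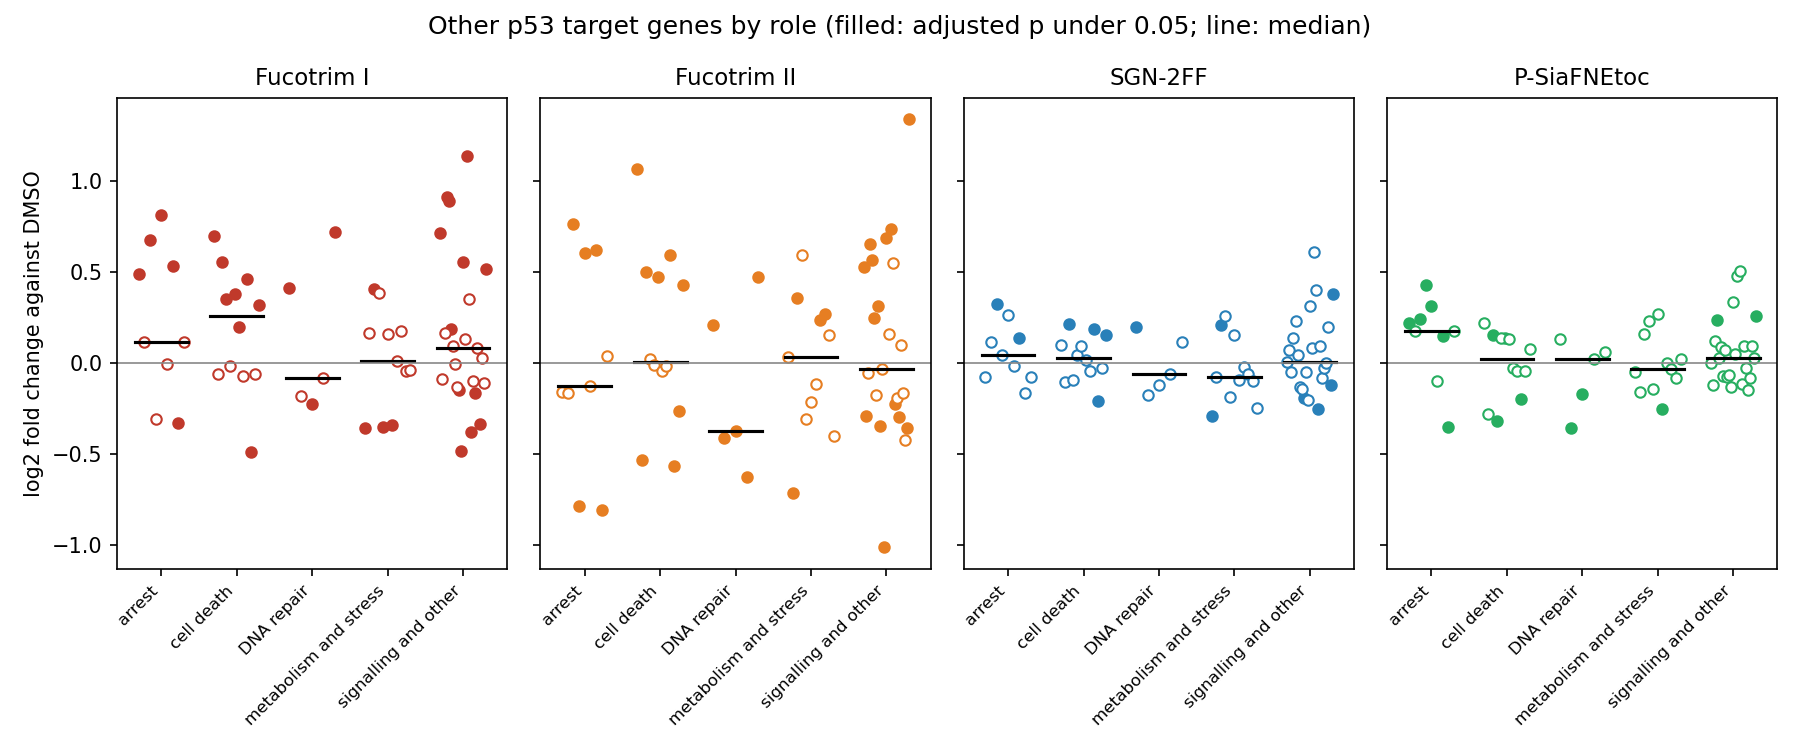
Log2 fold change against DMSO of the 60 other p53 targets tested, by role, with each inhibitor (filled points have adjusted p under 0.05, lines are medians). With Fucotrim I 21 were higher and 11 lower, with Fucotrim II 21 and 15, with SGN-2FF 8 and 5 and with P-SiaFNEtoc 9 and 6.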

How the data were processed

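Single reads of stranded mRNA libraries were trimmed (Cutadapt), aligned (HISAT2, hg38) and summed per gene (featureCounts) by the authors in Galaxy 22.01. They deposited raw counts, with 1 table per inhibitor that repeats the 3 DMSO libraries, whose counts were the same in the 4 tables over 27819 shared genes. The SGN-2FF table has no symbols and was matched by NCBI gene number. Tool versions, annotation release, strand setting and multi-mapping are not given in the sources used here. Pairs of replicates differed by more than sampling noise (chi-square per degree of freedom 1.59 to 24.2), so each library was counted. Groups came from the titles, and numbers in titles and library names differ for Fucotrim II. The paper states 3 biological repeats per condition, while the data used here hold 2 Fucotrim II libraries.

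Each inhibitor was fitted alone with DMSO in edgeR 4.0.16 (R 4.3.3): filterByExpr (minimum count 10, minimum total 15), TMM scaling, robust quasi-likelihood test, and Benjamini-Hochberg adjustment over all genes tested. CPM are after TMM scaling, except for the cell type markers, which were scaled by the total count on genes. Standard errors come from the log2 fold change and its F statistic. The test was checked on simulated counts. Alternatives were DESeq2 1.42.0 and its size factors, limma-voom (limma 3.58.1), other filters, a threshold of 0.01, mitochondrial genes left out, all 14 libraries in 1 fit, the replicate number as a block, and each library left out. The threshold of 0.58 on the log2 fold change was added after seeing the data.

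Gene lists were written by hand. The members and lists were chosen with earlier results of these data known. Outside the 9 genes and the regulators (1 of which is not reported here), genes named were the 3 largest rises and falls per inhibitor among called targets with at least 50 counts on average, CDKN1A, BBC3, BAX, FUCA1, ATF4, DDIT3 and CHAC1. Positions are from GENCODE v44 on hg38 and promoters from RefSeq, and all 14 windows matched the hg38 genome. The main fits did not pair samples by replicate number, and whether the numbers mark pairs is not known.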

Additional observations from a re-analysis of the deposited data

How the results depend on the processing

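Across the alternative scalings, filters, tools, the fit of all libraries and the replicate block, at the same threshold, 285 of 294 values of the 9 genes kept direction and side of the threshold, 0 lost a call, 4 gained one and 5 changed sign, all 5 with adjusted p over 0.9 in the alternative. The sign changes were of XPC with Fucotrim I under DESeq2's size factors (0.0052), the DESeq2 test (0.0051), at least 10 counts in every library (0.0013) and without mitochondrial genes (0.0048), and of TP53INP1 with Fucotrim II under the library-name block (-0.0116). With single libraries left out, uncalled values that changed sign ranged for Fucotrim I from -0.0753 to 0.0327 (RRM2B) and -0.0480 to 0.0372 (XPC), for Fucotrim II from -0.0673 to 0.0206 (SESN1), -0.18 to 0.48 (TP53I3), -0.0902 to 0.13 (TP53INP1) and -0.0279 to 0.0582 (XPC), for SGN-2FF from -0.0572 to 0.0085 (MDM2) and -0.0367 to 0.20 (FDXR), and for P-SiaFNEtoc from -0.0023 to 0.0474 (XPC). The number of the 9 genes called then ranged from 1 to 3, 3 to 4, 1 to 2 and 2 to 3 for Fucotrim I, Fucotrim II, SGN-2FF and P-SiaFNEtoc.

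The threshold of 0.01 left 1 of the 9 genes with Fucotrim I, and the added threshold of 0.58 left 1 (Fucotrim I), 1 (Fucotrim II), 0 (SGN-2FF) and 0 (P-SiaFNEtoc). For SGN-2FF limma-voom, no filter and the replicate block each called 2. Of the 60 other targets, 0.58 left 8, 14, 0 and 0, and 0.01 left 8 with SGN-2FF and 6 with P-SiaFNEtoc. The DESeq2 test called 6 with P-SiaFNEtoc, and the fit of all 14 libraries 5 with SGN-2FF and 5 with P-SiaFNEtoc. With libraries left out the number was 8 to 15 for both. Of all genes, 0.58 left 1281, 3041, 381 and 240, 0.01 left 1609 (SGN-2FF) and 1171 (P-SiaFNEtoc), the DESeq2 test called 1942 and 1482, the fit of all libraries 1695 and 998, and libraries left out 1642 to 3109 (lowest without SGN-2FF replicate 2) and 1516 to 2115 (lowest without P-SiaFNEtoc replicate 2). The cause was not tested.

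With the longest transcript as the length, levels in DMSO were 107.6 (GDF15), 27.5 (MDM2), 20.1 (XPC), 11.7 (RRM2B), 9.77 (FDXR), 2.67 (ZMAT3), 2.50 (SESN1) and 0.468 (TP53I3) CPM per kilobase, with FDXR above TP53INP1. The replicate block changed 3 of 45 values of the 9 genes. Deviations of libraries with the same title number correlated between -0.279 and 0.178, and for Fucotrim II by library names at 0.279 and 0.0881 over only 2 pairs. So few libraries cannot show whether equal numbers mark paired samples. The block moved the number of all genes called from 6209 to 7288 (Fucotrim I), 7511 to 5300 or, by library names, 7779 (Fucotrim II), 2946 to 2868 (SGN-2FF) and 2331 to 2674 (P-SiaFNEtoc). Counting depth limits TP53I3 most.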
